A study of Homo sapiens with 12 samples.

Results

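The nuclear genes for the subunits of oxidative phosphorylation were examined in T47D cells, an estrogen receptor-positive line from a human breast carcinoma. Members were taken by gene symbol from the 25370 genes of the count table (NDUFA, NDUFB, NDUFC, NDUFS and NDUFV with a number, SDHA to SDHD, UQCR, CYC1, COX4 to COX8 and ATP5), and 93 symbols matched. The pseudogenes ATP5EP2 and UQCRBP1 and the antisense genes NDUFA6-AS1 and NDUFB2-AS1 were left out, which left 89 members. These comprised 39 members of complex I, 4 of complex II, 10 of complex III, 17 of complex IV and 19 of complex V. Of the members, 85 encode a subunit; ATP5S, ATP5SL and the readthrough genes NDUFC2-KCTD14 and ATP5J2-PTCD1 do not. The readthrough genes had 0 counts in all 12 libraries, so 87 members were tested among 21132 genes.

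RNA-seq libraries came from 4 groups with 3 replicates each, lettered a, b and c. The groups were vehicle, anastrozole at 10 nM (a nonsteroidal aromatase inhibitor), E2 at 0.1 nM (17β-estradiol), and the combination of both at these doses, called anastrozole plus E2. All cells had first been kept for 48 h in medium with 5% charcoal-stripped serum and for 24 h without serum. The sample labels give 12 h of treatment, whereas the methods of the study give 24 h. The labels do not say whether replicates were separate cultures, and the study states 3 independent experiments for gene expression data in general. Whether that covers these libraries is not clear, so p-values rest on the spread between them, which may be technical. The test mostly used a spread shared by genes of similar level. The p-value of a gene is therefore not a measure of the spread of that gene alone. Because RNA was taken from whole cultures of 1 cell line, fewer expressing cells and less RNA per cell cannot be told apart.

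Oxidative phosphorylation couples the oxidation of NADH and succinate to ATP synthesis in the inner mitochondrial membrane. Complex I (NADH dehydrogenase) and complex II (succinate dehydrogenase) pass electrons to ubiquinone, complex III passes them to cytochrome c, and complex IV (cytochrome c oxidase) passes them to oxygen. Complexes I, III and IV pump protons, and complex V (ATP synthase) makes ATP from the resulting gradient. Most subunits are encoded in the nucleus and imported, and a small catalytic set is encoded in mitochondrial DNA. The mitochondrially encoded mRNAs were not analysed here, so only the nuclear side of each complex is described.

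Promoters of these genes are known for binding sites of the factors NRF1, GABP, YY1 and SP1. In the 250 bases before the start site, taken from RefSeq (GRCh38.p14) and matched for 66 members, the NRF1 core was found in 21.2% of member promoters and 5.53% of all 27305 promoters of the same length. The GABP/ETS core CCGGAAG was found in 24.2% and 8.82%, the YY1 core AAGATGG in 6.06% and 3.77%, and the SP1 GC box GGGCGG in 54.5% and 42.3%. Both strands were searched and each motif was counted without regard to overlap with the others. A match describes the letters only. The 150 bases upstream of 6 members are shown as examples of members that passed the test against vehicle: the first 4 were lower with anastrozole and the last 2 were higher with E2. They are not the 6 largest changes, and UQCRC1, the smallest fall of the 7 called with anastrozole, is shown because it is followed through all comparisons. Capitals mark matches to the NRF1 or GABP/ETS core on either strand, and each sequence runs 5′ to 3′ on the strand of the gene.
NDUFB11 (chrX:47144703-47144852, minus strand): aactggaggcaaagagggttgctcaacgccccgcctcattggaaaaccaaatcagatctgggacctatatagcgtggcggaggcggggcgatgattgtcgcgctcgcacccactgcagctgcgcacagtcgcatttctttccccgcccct
NDUFB2 (chr7:140696558-140696707, plus strand): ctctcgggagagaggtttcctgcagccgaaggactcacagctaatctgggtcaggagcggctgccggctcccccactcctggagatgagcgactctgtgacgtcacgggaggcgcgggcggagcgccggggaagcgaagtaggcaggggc
UQCR11 (chr19:1605463-1605612, minus strand): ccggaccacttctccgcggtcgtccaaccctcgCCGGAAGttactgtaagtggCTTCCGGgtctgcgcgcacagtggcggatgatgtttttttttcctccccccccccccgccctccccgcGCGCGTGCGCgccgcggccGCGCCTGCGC
UQCRC1 (chr3:48609647-48609796, minus strand): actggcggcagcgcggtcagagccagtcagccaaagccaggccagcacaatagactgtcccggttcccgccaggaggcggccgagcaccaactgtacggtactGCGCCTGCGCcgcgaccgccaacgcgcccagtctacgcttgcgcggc
UQCRC2 (chr16:21953211-21953360, plus strand): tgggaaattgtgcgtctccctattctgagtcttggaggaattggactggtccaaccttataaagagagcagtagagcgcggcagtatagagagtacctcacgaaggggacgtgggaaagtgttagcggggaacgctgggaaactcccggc
SDHD (chr11:112086723-112086872, plus strand): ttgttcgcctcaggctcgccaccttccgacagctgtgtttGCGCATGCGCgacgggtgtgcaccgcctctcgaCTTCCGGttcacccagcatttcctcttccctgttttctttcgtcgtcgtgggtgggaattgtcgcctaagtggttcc
UQCR11 held 2 matches to each core and SDHD 1 match to each, whereas the windows of NDUFB11, NDUFB2 and UQCRC2 held neither. Among the shown members that fell, and among those that rose, promoters with and without these letters were both present.

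The libraries held 9914253 to 17009776 reads assigned to genes (median 13538621). Levels are given as CPM, the count scaled to a common library size by TMM over the 12 libraries, and 3 counts corresponded to between 0.177 and 0.303 CPM, taken as the floor of detection for counting error only. All 9 luminal epithelial markers (ESR1, PGR, GATA3, FOXA1, KRT8, KRT18, KRT19, EPCAM, CDH1) were above the floor in all libraries. Their summed level was 11094 to 11188 CPM in vehicle and lower in every treated library, at 10134 to 10900 with anastrozole, 10479 to 10733 with E2 and 10741 to 10972 with both. Of these 9 markers, 5 (ESR1, FOXA1, KRT8, KRT19, CDH1) were called lower with E2 and 1 (PGR) with anastrozole. Of the 15 markers of fibroblasts, leukocytes, endothelium and myoepithelium, COL1A1, CD68 and TP63 were above it in all libraries, and COL1A2, COL3A1, DCN, PTPRC, CD3E, PECAM1, CDH5 and KRT5 were at or under it in all. The other 4 were at or under it in some of the 12 libraries, LUM in 8, CD14 in 7, VWF in 5 and KRT14 in 3. The summed leukocyte markers ranged from 3.27 to 4.82 CPM in vehicle, 5.76 to 7.50 with anastrozole, 5.14 to 6.04 with E2 and 5.24 to 6.08 with both, almost all of it CD68, which was called higher with anastrozole (log2 fold change 0.71, edgeR adjusted p = 0.00507) and with E2 (0.55, edgeR adjusted p = 0.0153) and negative in the interaction. The summed fibroblast markers, almost all of it COL1A1, ranged from 91.7 to 95.9 CPM in vehicle, 85.2 to 93.1 with anastrozole, 80.4 to 91.0 with E2 and 94.8 to 100.4 with both. COL1A1 was called higher with both agents than with E2 (0.17, edgeR adjusted p = 0.00174) and positive in the interaction. The part of these marker lists in the results was not tested.

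The members together took between 0.814% and 0.913% of the counts on genes, and 81 of the 87 tested members were above the floor in all 12 libraries. Levels of different genes are compared per kb of the canonical transcript. They spanned a wide range, from 543 CPM per kb for ATP5B, the catalytic beta subunit of ATP synthase, down to 0.756 for COX6B2, the lowest of those 81. The median member was at 76.8 CPM per kb, and medians by complex were 72.1 for complex I, 86.4 for complex II, 53.6 for complex III, 144 for complex IV and 91.8 for complex V. The highest member of each complex was NDUFB4 (173 CPM per kb), SDHC (207), UQCRH (242), COX8A (403) and ATP5B (543). NDUFB4 is an accessory subunit of complex I, SDHC a membrane anchor of complex II, UQCRH the hinge protein of complex III and COX8A a small subunit of complex IV. The lowest per kb were NDUFA4L2 (2.01), SDHB (49.4, the iron-sulfur subunit), UQCRFS1 (18.9, the Rieske protein), COX6B2 (0.756) and ATP5E (1.09, the epsilon subunit). The canonical transcripts of some members are several kilobases long, 3610 bases for ATP5E and 11660 for NDUFS1, which lowers their values per kb. ATP5E was also lowest in CPM, at 3.94 against a median of 141 for the complex V members above the floor in all libraries. If its reads also match the pseudogene ATP5EP2, some may be dropped by counting, which was not tested.

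Isoforms of one subunit stood far apart in level. COX4I1, the common form of subunit IV, was at 318 ± 14.7 CPM per kb in vehicle (mean ± SD, n = 3), and its partner COX4I2, known from lung and hypoxia, had 1 count in each of 2 anastrozole libraries and 0 in the other 10. COX6A1 was at 350 ± 19.5 CPM per kb in vehicle, and the heart and muscle form COX6A2 stayed at or under the floor in all 12 libraries. COX6B1 (146 ± 8.49 CPM per kb) and COX7A2 (191 ± 15.2) likewise stood above the testis form COX6B2 (0.696 ± 0.197) and the muscle form COX7A1 (1.61 ± 0.181) in vehicle. None of these genes other than COX6A1 passed the test in any comparison, although COX7A2 did for both agents against anastrozole in the fit corrected for GC content. The testis gene COX7B2 was at 2.82 ± 0.553 CPM per kb in vehicle, and COX8C, another testis gene, had no more than 1 count per vehicle library. UQCRH was at 243 ± 9.21 CPM per kb in vehicle, while its near copy UQCRHL had between 0 and 3 counts in each of the 12 libraries. Reads of near-identical copies can be split or dropped by counting, so such low values are uncertain. The 3 genes for the c subunit of ATP synthase encode the same mature peptide and, per kb, were ordered the same way in all 4 groups. ATP5G2 was highest (467 ± 21.8 CPM per kb in vehicle), ATP5G1 next (97.0 ± 6.81) and ATP5G3 lowest (56.4 ± 1.03). The order of the last 2 depends on transcript length, 646 bases for ATP5G1 and 2587 for ATP5G3. In CPM, ATP5G3 was above ATP5G1 in all 4 groups, at 145.9 and 62.7 in vehicle. NDUFA4L2, a hypoxia-linked paralog of NDUFA4, was at 2.06 ± 0.263 CPM in vehicle, 1.48 ± 0.304 with anastrozole, 1.73 ± 0.424 with E2 and 2.29 ± 0.583 with both, and no comparison of it passed the test. NDUFA4 itself, counted here with complex I by its symbol, has been placed in complex IV, and COX7A2L is known as a factor of supercomplex assembly.

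The summed level of each complex moved little with any treatment. With anastrozole, the sums of subunit mRNAs averaged 95.3% of the vehicle mean for complex I, 99.0% for complex II, 97.0% for complex III, 95.2% for complex IV and 96.7% for complex V. With E2, these values were 97.3%, 100.3%, 101.0%, 98.0% and 100.3%, and with anastrozole plus E2 they were 98.0%, 99.3%, 99.7%, 99.4% and 99.2%. In no complex and no treatment did the 3 libraries separate from those of vehicle. Single libraries stood apart on both sides. The complex I sum was 2556 and 2540 CPM in anastrozole replicates a and b, inside the vehicle range of 2511 to 2704 CPM, and 2326 CPM in replicate c. That library was also the lowest of the 12 for the sums of complexes II, III, IV and V. Vehicle replicate a was the highest of the 12 for complexes I, IV and V, at 2704 CPM for complex I against 2511 and 2576 in replicates b and c, and at 1504 CPM for complex IV against 1363 and 1391.

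**Figure D1:**
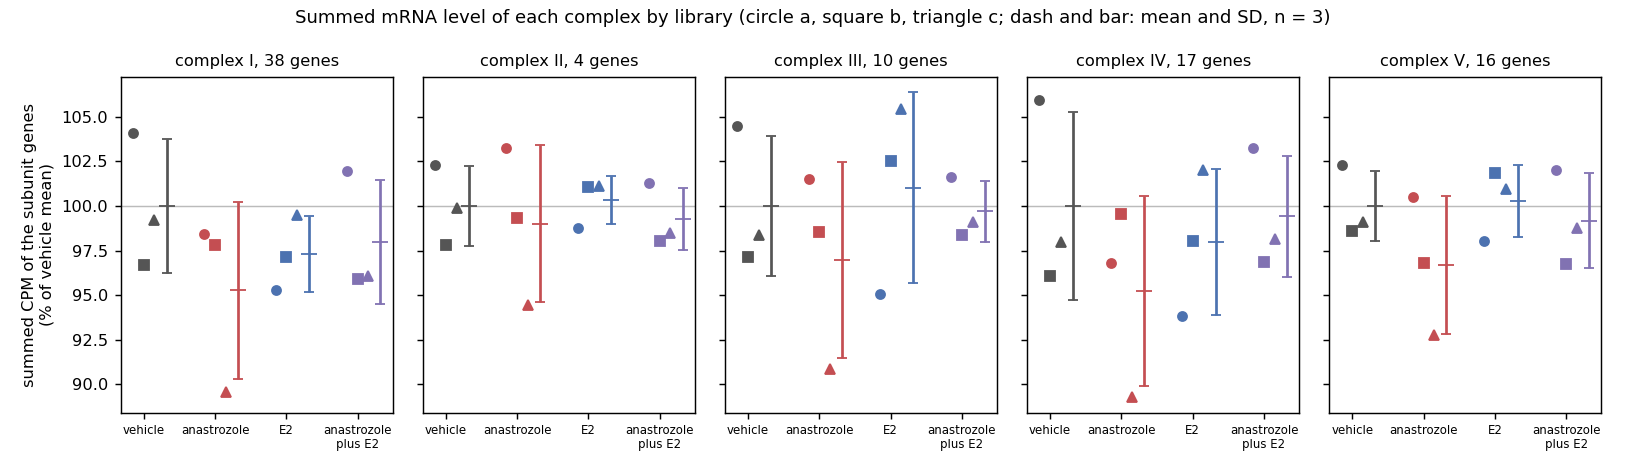
Summed CPM of the subunit genes of each complex in every library, as a percent of the vehicle mean (vertical axis, which does not start at 0), for the 4 groups (horizontal axis); points are libraries and the dash and bar are the mean and SD of 3. Treatment means lie between 95.2% and 101.0%, and the anastrozole library marked with a triangle (replicate c) lies lowest in each complex.

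The balance between complexes was taken from their shares. As a share of the summed CPM of all 85 subunit genes, complex I took 29.6 ± 0.178% in vehicle, 29.3 ± 0.236% with anastrozole, 29.1 ± 0.266% with E2 and 29.3 ± 0.262% with both (mean ± SD, n = 3). The E2 libraries, at 28.8% to 29.3%, lay below the vehicle libraries, at 29.4% to 29.7%. Complex II took 7.31 ± 0.0894% in vehicle and 7.52 ± 0.0935% with anastrozole, whose libraries all lay above those of vehicle. Shares of complexes III, IV and V overlapped with vehicle in all treatments, at 12.6% to 13.3%, 15.7% to 16.5% and 33.7% to 34.8% over the 12 libraries. These shares sum over chosen genes and were not tested.

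Anastrozole alone was compared with vehicle to ask whether the drug by itself changes these mRNAs. With anastrozole, 7 members fell and none rose. The fallers were NDUFB11, NDUFB2 and NDUFS8 of complex I, UQCR11, UQCRQ and UQCRC1 of complex III and COX6A1 of complex IV, with folds between 0.755 and 0.898 of vehicle. All p-values come from the quasi-likelihood test of edgeR, adjusted by Benjamini-Hochberg over 21132 genes, with a threshold of 0.05. Of all genes, 1.4% were called higher and 2.27% lower in this comparison. By complex, 3 of 38, 0 of 4, 3 of 10, 1 of 17 and 0 of 18 tested members of complexes I to V were called. At an unadjusted p under 0.05 there were 24 members (27.6%), against 15.1% of all genes. Among genes with a mean of at least 3 log2 CPM these shares were 29.9% of 77 members and 24.2% of 11006 genes. Of the 77 members, 65 (84.4%) had a negative log2 fold change, against 51.3% of all genes of that level. The median over these 77 was -0.06, against -0.0036 for the 11006 genes of that level.

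NDUFB11, an accessory subunit of the membrane arm of complex I, was at 117, 108 and 108 CPM in vehicle replicates a, b and c and at 89.7, 91.2 and 92.7 CPM with anastrozole. All anastrozole libraries were below all vehicle libraries, and the log2 fold change was -0.28 (SE 0.0536, edgeR adjusted p = 6.13e-05). NDUFB2, another accessory subunit of that arm, was at 42.5, 35.0 and 37.03 CPM in vehicle and 31.2, 28.5 and 26.4 CPM with anastrozole. The groups did not overlap, and its log2 fold change of -0.41 (SE 0.0788, edgeR adjusted p = 0.000105) was the largest fall among the 77 members with a mean of at least 3 log2 CPM. These were the 2 members called in all 6 fits that left out 1 library. NDUFB2 shares 24.3% of its exon bases with the antisense gene NDUFB2-AS1, which fell as well (log2 fold change -0.38, SE 0.102, edgeR adjusted p = 0.0102). Whether counting used the strand is not given in the sources used here, so reads of the overlap cannot be assigned to one of them. NDUFS8, a core iron-sulfur subunit, was at 49.8, 49.2 and 49.1 CPM in vehicle and 38.9, 43.0 and 44.2 CPM with anastrozole (log2 fold change -0.24, SE 0.0689, edgeR adjusted p = 0.0253). Its call held in 1 of the 6 fits that left out a library.

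In complex III, UQCR11, a small subunit, was at 51.9, 44.2 and 42.8 CPM in vehicle and 36.0, 42.4 and 34.0 CPM with anastrozole (log2 fold change -0.31, SE 0.0716, edgeR adjusted p = 0.0019). The highest anastrozole library was just below the lowest vehicle library. UQCRQ, also a small subunit, was at 99.2, 85.8 and 84.8 CPM in vehicle and 82.4, 82.8 and 72.1 CPM with anastrozole (log2 fold change -0.18, SE 0.0563, edgeR adjusted p = 0.0368). Of the 6 fits that left out a library, UQCR11 was called in 5 and UQCRQ in 2. UQCRC1, one of the core proteins of complex III, was at 158, 142 and 153 CPM in vehicle and 129, 135 and 143 CPM with anastrozole. These groups overlapped, and the log2 fold change of -0.16 (SE 0.0495, edgeR adjusted p = 0.0475) was called in 2 of the 6 fits without a library. In complex IV, COX6A1 was at 199.7, 180.4 and 183 CPM in vehicle and 169, 179 and 156 CPM with anastrozole (log2 fold change -0.16, SE 0.0473, edgeR adjusted p = 0.0325). Its call, too, held in 2 of the 6 fits without a library. COX8A was at 218, 192 and 199.5 CPM in vehicle and 176, 196 and 191 CPM with anastrozole, overlapping groups whose difference did not pass the test (log2 fold change -0.11, SE 0.0465, edgeR adjusted p = 0.169). No member of complexes II and V was called, although ATP5D, the delta subunit of ATP synthase, had a log2 fold change of -0.28 (SE 0.0942, edgeR adjusted p = 0.0605).

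The count of 7 depended on the libraries and the tool. Here and below, the share of all genes called is not given for the other tools and the fits without a library. Whether such changes in count are particular to the members therefore cannot be told. Without vehicle replicate a it was 2, without vehicle replicate c 3 and without vehicle replicate b 10, all lower. Without anastrozole replicate c, 7 members were lower and 2 higher. DESeq2's Wald test called 2 members, limma-voom 0 and the edgeR fit on all 12 libraries 12.

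**Figure D2:**
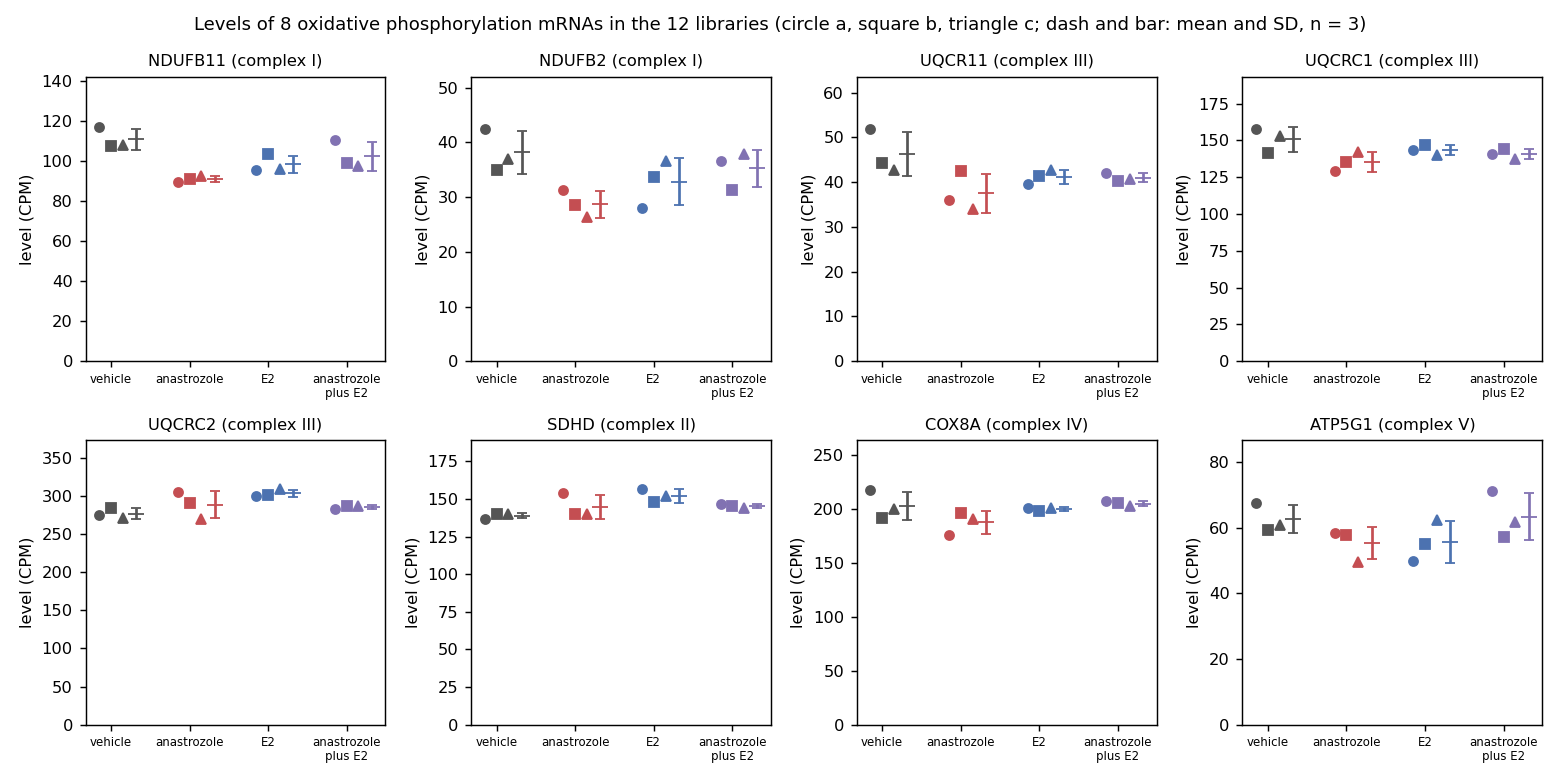
CPM (vertical axes, from 0) of 8 members in the 12 libraries by group (horizontal axes); symbols are replicates a, b and c and the dash and bar are the mean and SD of 3. NDUFB11 at 89.7 to 92.7 CPM with anastrozole lies below all vehicle libraries, UQCRC2 and SDHD lie above them with E2, and COX8A with anastrozole overlaps with vehicle.

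E2 alone was compared with vehicle, the contrast of the estrogen itself. Here 9 members fell and 3 rose. Those that fell were NDUFB11, NDUFA13, NDUFB2, NDUFB10, NDUFB8 and NDUFA8 of complex I, UQCR11 of complex III, COX6A1 of complex IV and ATP5G1 of complex V, and those that rose were UQCRC2 of complex III, SDHD of complex II and NDUFB5 of complex I. Folds lay between 0.864 and 1.10 of vehicle. Of all genes, 6.06% were called higher and 5.95% lower in this comparison. By complex, 7 of 38, 1 of 4, 2 of 10, 1 of 17 and 1 of 18 tested members of complexes I to V were called in either direction, and 28 members (32.2%) had an unadjusted p under 0.05, against 22.9% of all genes. At a mean of at least 3 log2 CPM, these shares were 36.4% of members and 37.6% of all genes. The median log2 fold change of the 77 members with a mean of at least 3 log2 CPM was -0.04, against 0.0038 for all genes of that level.

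UQCRC2, the other core protein of complex III, was at 275, 285 and 271 CPM in vehicle and 299.6, 302 and 309 CPM with E2. All E2 libraries were above all vehicle libraries (log2 fold change 0.13, SE 0.0336, edgeR adjusted p = 0.00178), and the call held in all 6 fits that left out a library. None of the calls with E2 named above held in the fit corrected for GC content, where UQCRC2 was at 0.08 (edgeR adjusted p = 0.113). Its partner UQCRC1 was at 144, 147 and 140.0 CPM with E2, overlapping with vehicle (log2 fold change -0.07, SE 0.0391, edgeR adjusted p = 0.274). SDHD, a membrane anchor of complex II, was at 137, 139.8 and 139.7 CPM in vehicle and 156, 148 and 152 CPM with E2 (log2 fold change 0.13, SE 0.0393, edgeR adjusted p = 0.013). The flavoprotein of the same complex, SDHA, had a log2 fold change of -0.07 (SE 0.0372, edgeR adjusted p = 0.28). NDUFB5, a membrane arm subunit, was at 226, 209 and 216 CPM in vehicle and 231, 225 and 241 CPM with E2 (log2 fold change 0.10, SE 0.0352, edgeR adjusted p = 0.0405), with overlapping groups.

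Among the fallers, NDUFB11 was at 95.7, 103 and 96.0 CPM with E2, below all vehicle libraries (log2 fold change -0.17, SE 0.0434, edgeR adjusted p = 0.00184). NDUFB2 was at 28.1, 33.7 and 36.5 CPM with E2, overlapping with vehicle (log2 fold change -0.21, SE 0.0644, edgeR adjusted p = 0.0136), and NDUFB2-AS1 fell too (log2 fold change -0.43, SE 0.0933, edgeR adjusted p = 0.000113). NDUFA13, an accessory subunit of complex I also known as GRIM-19, was at 75.5, 61.4 and 60.3 CPM in vehicle and 54.0, 57.4 and 60.5 CPM with E2 (log2 fold change -0.19, SE 0.0525, edgeR adjusted p = 0.0038). Vehicle replicate a stood above the rest for this gene. ATP5G1, a c-subunit gene, was at 67.7, 59.5 and 60.9 CPM in vehicle and 49.8, 55.0 and 62.5 CPM with E2 (log2 fold change -0.16, SE 0.0532, edgeR adjusted p = 0.0215), while its copies ATP5G2 and ATP5G3 each had a log2 fold change of -0.07 with edgeR adjusted p of 0.175 and 0.294. The other 5 that fell, NDUFB10, NDUFB8, NDUFA8, UQCR11 and COX6A1, had log2 fold changes between -0.17 and -0.11. Of the 6 fits that left out a library, NDUFB11 was called in 5, NDUFA13, NDUFB2 and SDHD in 4, ATP5G1 and COX6A1 in 3, NDUFB10, NDUFB8, UQCR11 and NDUFB5 in 2 and NDUFA8 in 0. COX8A was at 201, 198 and 201 CPM with E2, within the vehicle range (log2 fold change -0.02, SE 0.036, edgeR adjusted p = 0.817), and the sign of this small value was positive, at 0.03, without vehicle replicate a. Without vehicle replicate a all 9 falls were lost, and 6 members were higher and 0 lower. Without E2 replicate a 3 were higher and 1 lower, and without E2 replicate b 3 were higher and 4 lower. DESeq2 called 1 higher and 1 lower, and limma-voom 2 higher.

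**Figure D3:**
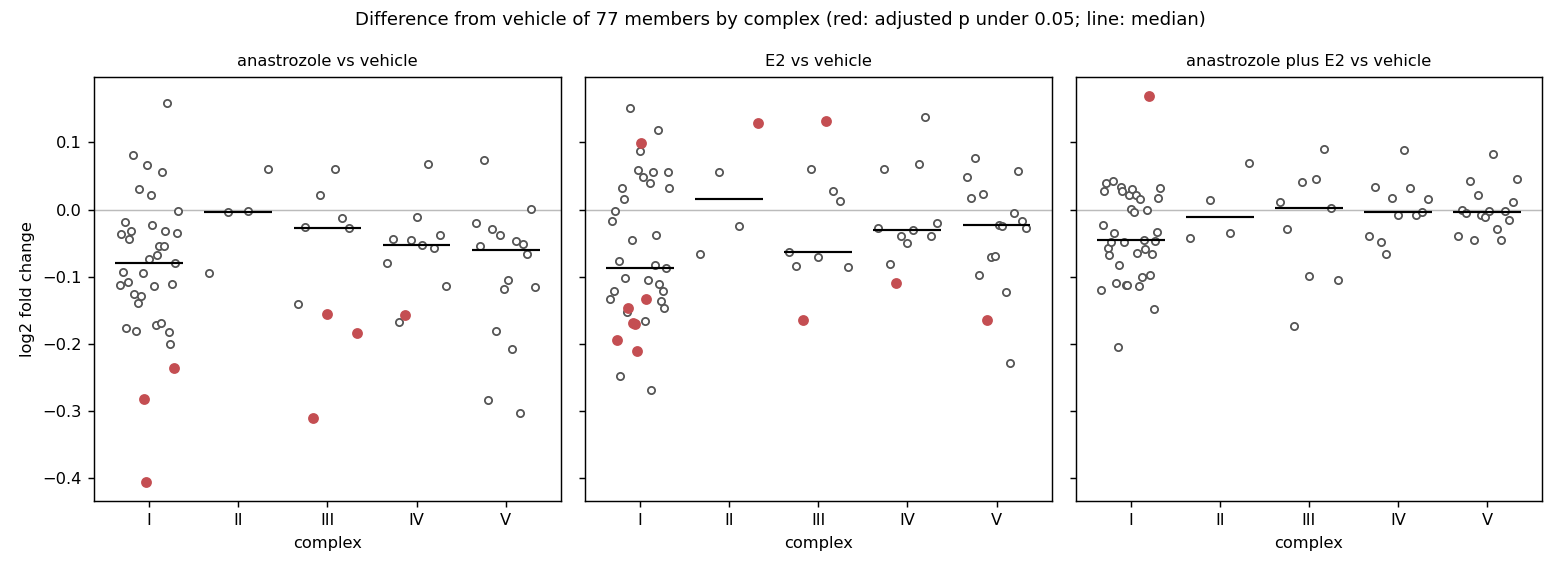
Log2 fold change against vehicle (vertical axis) of the 77 members with a mean of at least 3 log2 CPM, grouped by complex (horizontal axis) in 3 panels, one per treatment; points are genes, red points passed an adjusted p of 0.05 and lines are medians. Most points of complex I lie below 0 with anastrozole (31 of 37) with E2 (25 of 37) and with anastrozole plus E2 (24 of 37).

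For anastrozole plus E2 against vehicle, 1 member was called higher and 1 lower. Of all genes, 2.71% were called higher and 2.33% lower. At an unadjusted p under 0.05 there were 9 members (10.3%), against 15% of all genes. At a mean of at least 3 log2 CPM these shares were 10.4% of members and 22.2% of all genes. NDUFS4, an accessory subunit of the matrix arm of complex I, was at 53.5, 48.8 and 53.5 CPM in vehicle and 60.4, 56.6 and 57.9 CPM with both agents. The groups did not overlap (log2 fold change 0.17, SE 0.0535, edgeR adjusted p = 0.0364). NDUFS4 had a positive log2 fold change with anastrozole (0.16, SE 0.0641, edgeR adjusted p = 0.161) and with E2 (0.12, SE 0.0550, edgeR adjusted p = 0.156) too, without passing the test. ATP5E was at 4.04, 3.95 and 4.98 CPM in vehicle and 3.15, 2.30 and 3.22 CPM with both agents, again without overlap (log2 fold change -0.58, SE 0.188, edgeR adjusted p = 0.0427). This gene is low and shares 32.7% of its exon bases with TUBB1 on the opposite strand. UQCRC1 was at 141, 144 and 137 CPM (log2 fold change -0.10, SE 0.0405, edgeR adjusted p = 0.157) and COX8A at 207, 205 and 202 CPM (log2 fold change 0.02, SE 0.0377, edgeR adjusted p = 0.925), neither apart from vehicle. The sign for COX8A was negative, at -0.02, without vehicle replicate b. Both calls of this comparison were lost without anastrozole plus E2 replicate b and without its replicate c, 1 was called, lower, without its replicate a, and DESeq2, limma-voom and the fit on all 12 libraries called 0 members. Without vehicle replicate a 2 members were higher and 0 lower, and without vehicle replicate b 0 were higher and 3 lower. The median log2 fold change of the 77 members was -0.0078, against -0.0044 for all genes of that level.

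The 2 single treatments were also compared directly, to ask whether anastrozole and E2 differ from each other in these genes. In edgeR's quasi-likelihood test 0 members differed, 9 had an unadjusted p under 0.05 (10.3%, against 8.79% of all genes), and DESeq2 and limma-voom called 0 as well. At a mean of at least 3 log2 CPM these shares were 10.4% of members and 13.0% of all genes, so the order turned. Of all genes, 0.62% were called higher and 0.705% lower with anastrozole than with E2. UQCRC1 had a log2 fold change of -0.08 (95% interval -0.16 to 0.01, edgeR adjusted p = 0.655). COX8A had one of -0.09 (95% interval -0.17 to -0.01, edgeR adjusted p = 0.482), and its 3 anastrozole libraries lay below its 3 E2 libraries. For NDUFB11, at 89.7 to 92.7 CPM with anastrozole and 95.7 to 103 CPM with E2, the groups did not overlap and the test was not passed. These intervals do not show that the agents act alike. The fit on all 12 libraries called 2 members lower with anastrozole, and without anastrozole replicate a 3 were lower.

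Adding anastrozole to E2 raised ATP5G1 and lowered ATP5E, and no other member was called, beside 3.23% of all genes called higher and 3.51% called lower. At an unadjusted p under 0.05 there were 16 members (18.4%), against 18.2% of all genes. At a mean of at least 3 log2 CPM these shares were 19.5% of members and 30.8% of all genes. ATP5G1 was at 49.8, 55.0 and 62.5 CPM with E2 and 71.1, 57.3 and 61.9 CPM with both (log2 fold change 0.19, SE 0.0517, edgeR adjusted p = 0.00946), with overlapping groups. ATP5E was at 5.20, 4.19 and 4.58 CPM with E2 and 3.15, 2.30 and 3.22 CPM with both (log2 fold change -0.67, SE 0.183, edgeR adjusted p = 0.00731). UQCRC1 (log2 fold change -0.03, SE 0.0362, edgeR adjusted p = 0.731) and COX8A (0.04, SE 0.0335, edgeR adjusted p = 0.648) were not called. Without anastrozole plus E2 replicate a 0 members were higher and 6 lower, whereas without its replicate b 2 were higher and 0 lower. Without E2 replicate c 3 were higher and 2 lower, and without E2 replicate a or b 1 was called, lower. DESeq2 and limma-voom called 0 members, and with the filterByExpr filter 1 was called, lower.

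Adding E2 to anastrozole raised 5 members and lowered none. Of all genes, 1.71% were called higher and 1.18% lower. At an unadjusted p under 0.05 there were 20 members (23%), against 13.7% of all genes. At a mean of at least 3 log2 CPM these shares were 23.4% of members and 21.8% of all genes. Of the 5, ATP5I (the e subunit), ATP5D (the delta subunit) and ATP5G1 belong to complex V, and NDUFB2 and NDUFB11 to complex I. ATP5I was at 34.8, 38.5 and 28.3 CPM with anastrozole and 45.8, 39.1 and 38.6 CPM with both (log2 fold change 0.29, SE 0.0722, edgeR adjusted p = 0.00636). ATP5D was at 17.7, 19.3 and 22.8 CPM with anastrozole and 26.0, 24.4 and 24.2 CPM with both (log2 fold change 0.33, SE 0.0848, edgeR adjusted p = 0.0093). In both genes all libraries with both agents were above all with anastrozole alone. NDUFB2 reached 36.6, 31.3 and 37.8 CPM (log2 fold change 0.29, SE 0.0754, edgeR adjusted p = 0.00917) and NDUFB11 reached 111, 98.8 and 97.5 CPM (log2 fold change 0.17, SE 0.0501, edgeR adjusted p = 0.0364), also without overlap. ATP5G1 overlapped between the groups (log2 fold change 0.20, SE 0.0618, edgeR adjusted p = 0.0466). COX8A had a log2 fold change of 0.13 (SE 0.0435, edgeR adjusted p = 0.0869) and UQCRC1 one of 0.05 (SE 0.0462, edgeR adjusted p = 0.695). No member was called without anastrozole plus E2 replicate a, and 2 were called, both higher, without its replicate c or without anastrozole replicate b. Without anastrozole replicate c 6 were higher and 2 lower. DESeq2 and limma-voom called 0.

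The interaction of the agents, which is the anastrozole effect with E2 minus that without E2, was fitted on all 12 libraries and was chosen after seeing the data. It was past the threshold in 14 members, positive in 13 and negative in 1, beside 5.93% of all genes called positive and 4.93% called negative. At an unadjusted p under 0.05 there were 33 members (37.9%), against 22.1% of all genes, and at a mean of at least 3 log2 CPM these shares were 41.6% and 37.2%. The 13 were NDUFB11, NDUFB2, NDUFS8, NDUFB8 and NDUFA13 of complex I, CYC1 (cytochrome c1) and UQCR11 of complex III, COX6A1 of complex IV, and ATP5G1, ATP5D, ATP5I, ATP5G3 and ATP5J2 of complex V. ATP5C1, the gamma subunit, had the negative value. By complex, 5 of 38, 0 of 4, 2 of 10, 1 of 17 and 6 of 18 tested members were called. NDUFB11 had an anastrozole effect of -0.28 without E2 and 0.06 with E2, and the interaction was 0.34 (SE 0.0658, edgeR adjusted p = 2.59e-05). For NDUFB2 these values were -0.41, 0.10 and 0.50 (SE 0.104, edgeR adjusted p = 8.48e-05). ATP5G1 fell short of the threshold with anastrozole alone (log2 fold change -0.18) and was higher with E2 present (0.19), for an interaction of 0.37 (SE 0.0797, edgeR adjusted p = 0.000253). COX8A (0.15, SE 0.0566, edgeR adjusted p = 0.0661) and UQCRC1 (0.13, SE 0.0604, edgeR adjusted p = 0.182) were not called. DESeq2 called 6 members and limma-voom 5. The count was 8 without vehicle replicate c, E2 replicate a or anastrozole plus E2 replicate a, 9 without vehicle replicate a and 21 without vehicle replicate b, with no more than 1 negative in these fits. Without anastrozole replicate c 13 were positive and 4 negative.

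**Figure D4:**
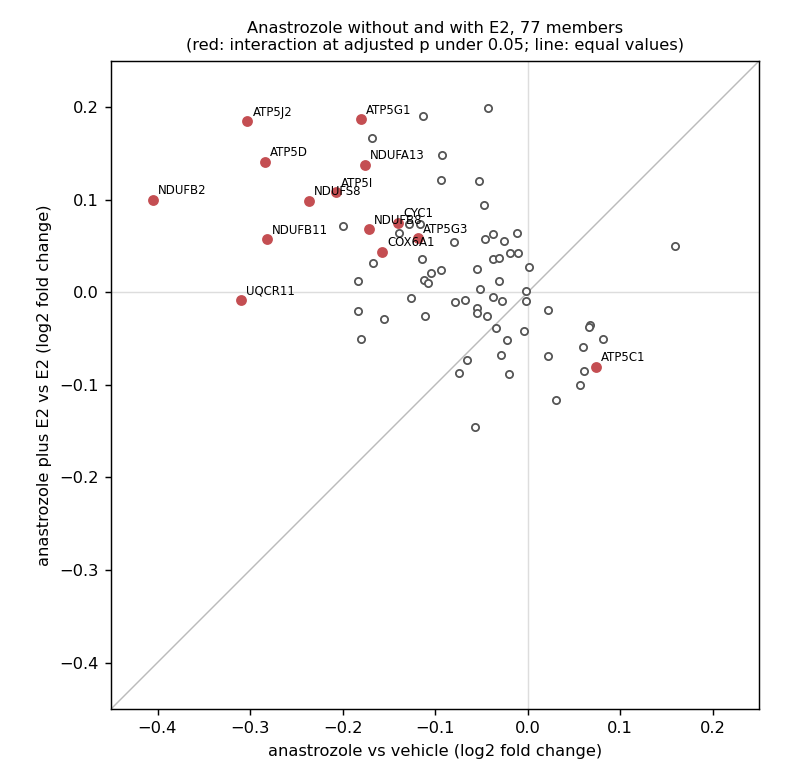
Log2 fold change of anastrozole plus E2 against E2 (vertical axis) and of anastrozole against vehicle (horizontal axis) for 77 members, which use different libraries; points are genes, red points passed an adjusted p of 0.05 for the interaction and the diagonal marks equal values. The labelled genes other than ATP5C1 lie left of 0 and above the diagonal, as NDUFB2 at -0.41 and 0.10.

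The relation of the differences to the base composition of the transcripts was examined in the members and in all genes, and it varied between comparisons. Across the 77 members with a mean of at least 3 log2 CPM, Spearman's rho between GC content and log2 fold change relative to vehicle was -0.67 with anastrozole, -0.66 with E2 and -0.32 with both. Across 10831 genes of the same level, it was -0.55, -0.56 and -0.04. Genes share libraries and are not independent replicates, so these values are descriptions. For anastrozole against E2, rho was -0.04 in the members and 0.12 in all genes. For both agents it was 0.52 and 0.69 against E2 and 0.47 and 0.58 against anastrozole, and for the interaction 0.70 and 0.72. The members' median GC content was 47.2%, against 48.2% for all genes of that level, and it ran from 34.6% for NDUFA5 to 69.5% for ATP5D. The 7 members that fell with anastrozole were NDUFS8 (63.5% GC), NDUFB11 (58.9%), UQCRC1 (58.3%), NDUFB2 (54.2%), COX6A1 (52.9%), UQCR11 (52.8%) and UQCRQ (47.2%, the members' median), and members that rose with E2 were UQCRC2 (42.9%), SDHD (39.8%) and NDUFB5 (39.8%). Libraries differed in this trend: the slope of log2 CPM, relative to each gene's mean, per 10 percentage points of GC was 0.00 to 0.06 in vehicle, -0.09 to 0.03 with anastrozole, -0.06 to -0.03 with E2 and 0.03 to 0.04 with both.

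**Figure D5:**
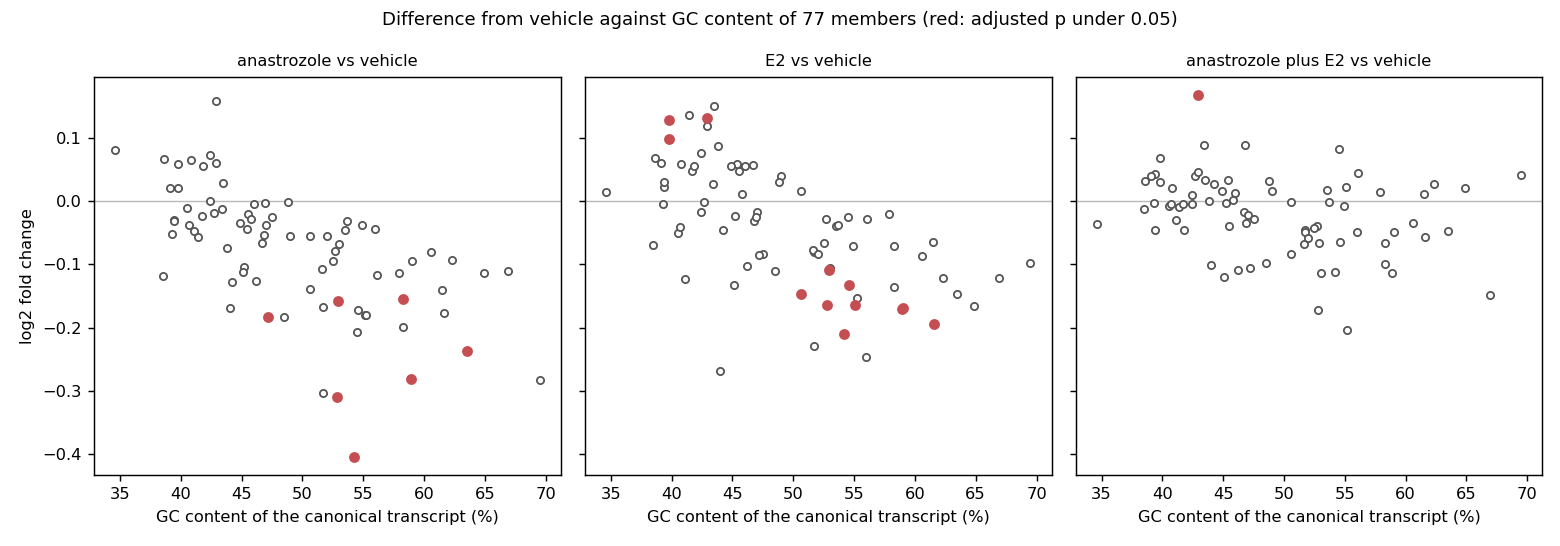
Log2 fold change against vehicle (vertical axis) and GC content of the canonical transcript in percent (horizontal axis) of 77 members in 3 panels, one per treatment; points are genes and red points passed an adjusted p of 0.05. Points descend with GC content for anastrozole (rho -0.67) and E2 (rho -0.66) and less so for both agents (rho -0.32).

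With each library's GC trend removed as an offset, a step that also removes any true change following GC content, anastrozole lowered 8 members and raised none, beside 1.43% of all genes lower and 1.51% higher under the offset. These held 5 of the 7 named above, namely NDUFB2 (log2 fold change -0.36, edgeR adjusted p = 9.72e-05), NDUFB11 (-0.20, 0.000747), UQCR11 (-0.28, 0.00124), UQCRQ (-0.20, 0.00235) and COX6A1 (-0.12, 0.0318). NDUFS8 (-0.11, edgeR adjusted p = 0.447) and UQCRC1 (-0.08, edgeR adjusted p = 0.388) were no longer called, and ATP5G3, ATP5H and NDUFS5 were. For E2 none of the 12 calls remained. Of these log2 fold changes 3 stayed about as large, those of NDUFA8 (-0.15 before and -0.13 under the offset, edgeR adjusted p = 0.0773 under it), UQCR11 (-0.16 and -0.13, 0.184) and NDUFB2 (-0.21 and -0.16, 0.0978). The other 9 shrank more, namely UQCRC2 (0.13 and 0.08, 0.113), NDUFB11 (-0.17 and -0.08, 0.278), NDUFB5 (0.10 and 0.02, 0.822), NDUFA13 (-0.19 and -0.08), NDUFB10 (-0.17 and -0.08), SDHD (0.13 and 0.05), NDUFB8 (-0.13 and -0.08), ATP5G1 (-0.16 and -0.11) and COX6A1 (-0.11 and -0.07). Under the offset 4 other members were lower with E2, ATP5G3, ATP5J, COX6C and NDUFC2, beside 3.45% of all genes. NDUFS4 and ATP5E kept their calls for both agents against vehicle, where 3.38% of all genes were higher and 2.65% lower under the offset. For both agents against E2 the calls of ATP5E (-0.67 before and -0.59 under the offset, edgeR adjusted p = 0.114 under it) and ATP5G1 (0.19 and 0.14, 0.26) were lost with most of their size kept, and ATP5G3 and ATP5J were called higher, beside 0.388% of all genes higher and 0.369% lower. Against anastrozole, with 1.05% of all genes higher and 1.06% lower, ATP5I and NDUFB2 kept their calls, ATP5G3, ATP5H, COX7A2 and NDUFA4 were called higher too, and ATP5D (0.33 and 0.16), NDUFB11 (0.17 and 0.09) and ATP5G1 (0.20 and 0.15) lost theirs. In the direct comparison 3 members, ATP5O, COX7B and NDUFB4, were lower with anastrozole than with E2, beside 1.15% of all genes. For the interaction 6 members were called, all positive, beside 1.13% of all genes positive and 1.23% negative, of which NDUFB2 (0.42, edgeR adjusted p = 0.0031) and ATP5G3 (0.33, edgeR adjusted p = 1.03e-07) were among the 14. The rest of the 14 lost their calls. ATP5J2 (0.49 before and 0.44 under the offset) and UQCR11 (0.30 and 0.24) kept most of their size. CYC1 (0.22 and 0.004), ATP5D (0.42 and 0.08) and NDUFS8 (0.34 and 0.09) kept little, and all are given with the flagged results. Under the offset the median log2 fold change with anastrozole was -0.06 for complex I, -0.02 for complex II, -0.05 for complex III, -0.07 for complex IV and -0.10 for complex V. The part of base composition in the differences was not tested further.

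Other genes of the pathway changed in small numbers. Of 45 assembly factors tested, none passed with anastrozole (at a median log2 fold change of -0.02), 1 rose with E2, beside 6.06% of all genes, and 1 fell with both agents, beside 2.33%. COX20, a chaperone of COX2 in complex IV assembly, was the riser (log2 fold change 0.13, SE 0.0455, edgeR adjusted p = 0.0362), and SDHAF2, which attaches the flavin of SDHA, was the faller (-0.18, SE 0.0538, edgeR adjusted p = 0.0258). Adding anastrozole to E2 lowered COX11 (-0.12, SE 0.0398, edgeR adjusted p = 0.0372) and LRPPRC (-0.10, SE 0.032, edgeR adjusted p = 0.0413), beside 3.51% of all genes lower. Of 13 TCA cycle genes, 1 fell with anastrozole, OGDH (-0.21, SE 0.0537, edgeR adjusted p = 0.00729), beside 2.27% of all genes. With E2 2 rose and 1 fell, beside 6.06% and 5.95% of all genes. These were SUCLG1 (0.18, SE 0.0504, edgeR adjusted p = 0.00725) and SUCLA2 (0.15, SE 0.0555, edgeR adjusted p = 0.0487), both of succinyl-CoA ligase, which rose, and OGDH, which fell (-0.16, SE 0.0439, edgeR adjusted p = 0.00344). Against E2 alone, 1 TCA cycle gene was lower with both agents, beside 3.51% of all genes. In the interaction 1 was positive and 1 negative, beside 5.93% and 4.93% of all genes.

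Of 14 genes for electron carriers and mitochondrial transcription, 3 rose and 1 fell with E2, beside 6.06% and 5.95% of all genes, and 2 fell with anastrozole, beside 2.27%. With both agents none passed the test against vehicle, and 2 (CYCS and YY1) were lower than with E2 alone, beside 3.51% of all genes. CYCS, which encodes cytochrome c, the carrier between complexes III and IV, was at 218, 235 and 224 CPM in vehicle, 275, 259 and 276 CPM with E2 and 255, 245 and 225 CPM with both. All E2 libraries were above those of the other groups, with a log2 fold change against vehicle of 0.26 (SE 0.0346, edgeR adjusted p = 1.75e-11), and the call remained with the GC offset (edgeR adjusted p = 1.24e-07). With anastrozole its level was below that with E2 (-0.21, SE 0.0399, edgeR adjusted p = 4.41e-05). PPARGC1A, a coactivator of mitochondrial biogenesis, was low, at 2.59, 3.95 and 1.79 CPM in vehicle and 4.18, 4.37 and 4.58 CPM with E2 (0.65, SE 0.192, edgeR adjusted p = 0.0096). YY1 rose with E2 as well (0.17, SE 0.04, edgeR adjusted p = 0.000439). POLRMT, the mitochondrial RNA polymerase, fell with E2 (-0.20, SE 0.0606, edgeR adjusted p = 0.0115) and with anastrozole (-0.24, SE 0.072, edgeR adjusted p = 0.0325), as did PPRC1 with anastrozole (-0.22, SE 0.0681, edgeR adjusted p = 0.0427). NRF1, ESRRA and TFAM, further regulators of these genes, passed no comparison of a treatment with vehicle, their log2 fold changes lying between -0.13 and 0.01. With the GC offset TFAM was lower with anastrozole (-0.14, edgeR adjusted p = 0.0319) and with E2 (-0.13, edgeR adjusted p = 0.0148). The interaction was past the threshold in 7 of the 14 genes, positive in 3 and negative in 4, beside 5.93% and 4.93% of all genes, and PPARGC1A had the value farthest from 0 (-1.05, SE 0.277, edgeR adjusted p = 0.00359).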

How the data were processed

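RNA-seq of 12 T47D libraries was analysed. The authors deposited whole-number read counts per gene, not normalized, made with TopHat 2.0.14, bowtie 2.2.6 and htseq-count on hg19. Their strand setting and annotation are not given in the sources used here. The labels give polyA RNA and the methods total RNA. Groups came from the labels. From the counts, genes at 0 in all libraries were removed, and each comparison used the 6 libraries of its groups (edgeR 4.0.16, R 4.3.3; TMM, robust quasi-likelihood F test, 2-sided, Benjamini-Hochberg over 21132 genes, threshold 0.05). Depth was 9914253 to 17009776 counts on genes. Standard errors are the log2 fold change divided by the root of F. They mostly followed the level of a gene and not the spread of its own libraries. For anastrozole against vehicle, NDUFB11 and CYC1 both had an SE of 0.0536. Their SDs with anastrozole were 1.48 and 4.20 CPM. An exception was UQCRB, with an SE of 0.0839 in that comparison. Alternatives were other size factors, filterByExpr, DESeq2 1.42.0, limma-voom 3.58.1, all 12 libraries, a replicate block, a GC offset (lowess span 0.5) and leaving out each library. Shares of all genes called under the GC offset or at an unadjusted p under 0.05 were computed after seeing the data. GC content and length came from canonical transcripts of GENCODE for GRCh37, whose main chromosomes hg19 shares. Of 25370 genes, 21539 matched by symbol, 1488 by an older symbol and 2343 not. On counts simulated for anastrozole against vehicle (19763 genes), the test found 32.8% of genes changed 1.2-fold, 89.6% at 1.5-fold and 97.0% at 2-fold. Of its calls, 4.58% were false. Changed genes were drawn only from those above a minimum mean count, so these shares do not cover low-count genes. The simulated counts held no trend with GC content, so the share of false calls need not hold for the real libraries.

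Members and lists were chosen with earlier results of these data known. Genes named were COX8A, UQCRC1, the members past the threshold, the highest and lowest per kb of each complex, known isoforms, and up to 5 listed pathway genes per comparison. Others, such as those called only under the GC offset, ATP5D in anastrozole against vehicle and members with a near copy or overlap, were named after their values were seen.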

Additional observations from a re-analysis of the deposited data

Results flagged for a closer look

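For 14 members the anastrozole effect with E2 differed from that without E2 by the interaction term of edgeR's quasi-likelihood fit on 12 libraries, positive in 13 and negative in 1, beside 5.93% and 4.93% of all genes. At a mean of at least 3 log2 CPM, 41.6% of members and 37.2% of all genes had an unadjusted p under 0.05 for it. In complex I the difference, on the log2 scale, was 0.34 for NDUFB11, 0.50 for NDUFB2, 0.34 for NDUFS8 (SE 0.0899, edgeR adjusted p = 0.00416), 0.24 for NDUFB8 (SE 0.068, edgeR adjusted p = 0.00764) and 0.31 for NDUFA13 (SE 0.0879, edgeR adjusted p = 0.00946). In complex III it was 0.22 for CYC1 (SE 0.0655, edgeR adjusted p = 0.0135) and 0.30 for UQCR11 (SE 0.0942, edgeR adjusted p = 0.018), and in complex IV it was 0.20 for COX6A1 (SE 0.0576, edgeR adjusted p = 0.00845). In complex V it was 0.37 for ATP5G1, 0.42 for ATP5D (SE 0.12, edgeR adjusted p = 0.00751), 0.32 for ATP5I (SE 0.0982, edgeR adjusted p = 0.0175), 0.18 for ATP5G3 (SE 0.0606, edgeR adjusted p = 0.0366), 0.49 for ATP5J2 (SE 0.172, edgeR adjusted p = 0.0442) and -0.15 for ATP5C1 (SE 0.0545, edgeR adjusted p = 0.0433). In 12 of the 13 positive cases the effect was below 0 without E2 and above 0 with E2; UQCR11 was at -0.31 and -0.01. NDUFB11, NDUFB2, ATP5G1 and NDUFS8 were called in all 12 fits that left out a library, the others in 4 to 11. With the GC offset NDUFB2 and ATP5G3 remained past the threshold, and the other calls were lost. Most of the size was kept by ATP5J2 (0.49 before and 0.44 under the offset) and UQCR11 (0.30 and 0.24). ATP5G1 (0.37 and 0.26), ATP5I (0.32 and 0.22), COX6A1 (0.20 and 0.14), NDUFB8 (0.24 and 0.15) and NDUFB11 (0.34 and 0.17) shrank more. NDUFS8 (0.34 and 0.09), NDUFA13 (0.31 and 0.09), ATP5D (0.42 and 0.08), ATP5C1 (-0.15 and -0.05) and CYC1 (0.22 and 0.004) shrank most. ATP5J2 shares 32.5% of its exon bases with a readthrough gene on the same strand that had 0 counts.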

How the results depend on the processing

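Counts of members called depended strongly on the tool. Shares of all genes called in these other fits are not given, except under the GC offset. The counts therefore do not show whether the changes are particular to the members. For anastrozole against vehicle, 7 became 4 with the filterByExpr filter, 2 with DESeq2, 0 with limma-voom and 12 with all 12 libraries, and 2 to 10 when single libraries were left out. For E2 against vehicle, 12 became 2 with DESeq2, 2 with limma-voom, 7 with all 12 libraries, 7 with a replicate block, 4 with the GC offset and 4 with the GC offset and replicate block, and 4 to 15 without single libraries. For anastrozole plus E2 against vehicle, 2 became 0 with filterByExpr, DESeq2, limma-voom or all 12 libraries, 4 with the replicate block, alone or with the GC offset, and 0 to 3 without single libraries. For anastrozole against E2, 0 became 2 with all 12 libraries, 3 with the GC offset and 1 when a replicate block was added to it, and 0 to 3 without single libraries. For anastrozole plus E2 against E2, 2 became 4 with DESeq2's size factors, 1 with filterByExpr, 0 with DESeq2 or limma-voom, and 1 to 6 without single libraries. Against anastrozole, 5 became 0 with filterByExpr, DESeq2 or limma-voom, and 0 to 8 without single libraries. The interaction count of 14 became 6 with DESeq2, 5 with limma-voom, 6 with the GC offset and 7 with it and a replicate block, and 8 to 21 without single libraries. A filter leaves fewer genes and a left-out library fewer samples, and the causes of the changed counts were not tested.

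Directions were followed through all settings for UQCRC1, COX8A and the called members, and those that turned were values of UQCRC1 and COX8A that passed no test. With the GC offset, and then with the replicate block added to it, UQCRC1 turned for E2 against vehicle (0.015 and 0.016), for both agents against anastrozole (-0.016 and -0.017) and in the interaction (-0.0290 and -0.0292). COX8A turned in the same settings for E2 against vehicle (0.062 and 0.064) and for both agents against E2 (-0.0367 and -0.0371). Other members that passed no test turned under the GC offset too, such as ATP5D for both agents against E2 (0.14 to -0.02), NDUFS7 for E2 against vehicle (-0.12 to 0.04) and NDUFB7 for anastrozole against vehicle (-0.11 to 0.03). Without single libraries, COX8A ranged from -0.060 to 0.033 for E2 against vehicle and from -0.023 to 0.070 for both agents against vehicle. Of the 42 calls of single members, 40 held with DESeq2's size factors, 40 with library size alone, 20 with filterByExpr, 10 with DESeq2, 7 with limma-voom, 35 with the replicate block and 11 with the GC offset, with or without the block; none turned. Of 28 that could be refitted on all 12 libraries, 21 held. The libraries were not treated as paired by the letters a, b and c. In no comparison were all 3 same-letter correlations of the deviations over 0.1, which cannot show whether same-letter libraries shared a culture. The correlations were all positive for anastrozole plus E2 against vehicle (0.139, 0.069 and 0.034) and against anastrozole (0.135, 0.0053 and 0.049). The replicate block is given as a check only. In counts simulated for anastrozole against vehicle, changes of 1.2-fold were mostly missed among the changed genes, which did not include low-count genes. The 95% intervals of some uncalled members lay within a change of that size, as for ATP5B (-0.13 to 0.02 on the log2 scale), SDHC (-0.09 to 0.09) and ATP5A1 (-0.10 to 0.06) with anastrozole.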
